A study of Nannospalax ehrenbergi and Mus musculus with 25 samples.

Results

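The nuclear-encoded subunits of the mitochondrial respiratory chain and ATP synthase were followed in muscle and tumor tissue of the blind mole rat Spalax and of mice given the carcinogen 3-methylcholanthrene (3MCA). Members were taken by name, as every gene of the count tables called Nduf (families a, b, c, s and v), Sdha to Sdhd, Uqcr, Cox4 to Cox8 or Atp5, without names marked as pseudogenes or related sequences. In all, 86 names met this rule among the 60812 names of both tables. Of these, 58 stood among the 27988 genes of the Spalax table, 84 among the 47593 genes of the mouse table, and 56 in both. In Spalax they comprised 35 subunits of complex I, 4 of complex II, 15 of complex V and 2 counted with complex IV, namely Ndufa4 and its paralog Ndufa4l2. In mice they comprised 35, 4, 8, 20 and 15 members of complexes I, II, III, IV and V. A further pair, Atp5s and Atp5sl, matched the rule by name in both species but is not counted with any complex.

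The 28 names found only in the mouse table were the 8 Uqcr genes of complex III, 18 Cox genes of complex IV, Ndufv2 and Atp5k, and their Spalax counterparts were not analysed here. Ndufb1 and Atp5i were found only in the Spalax table. Atp5i and Atp5k are names used for the same e subunit of ATP synthase, but they were kept apart here because members were matched by name.

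The animals were field-caught Spalax (Nannospalax ehrenbergi) and C57BL/6 mice of 3 to 4 months. The age of the treated Spalax could only be estimated, at between 2 and over 10 years. Each injected animal had received a single subcutaneous dose of 3MCA in the left flank of the neck, 1 mg in 500 µl for Spalax and 200 µg in 200 µl for mice. RNA was sequenced from 16 Spalax and 9 mouse libraries, all labelled as muscle. The Spalax groups were untreated control muscle (animals 1042, 1075, 2095 and 6038, all female) and injected muscle of tolerant animals, which had formed no tumor (males 2251 and 2261 at 18 months, male 2218 and female 2375 at 30 months). For tumor-bearing Spalax both the injected side (IS), which held the tumor, and the uninjected side (UIS) were sampled. A granuloma, a benign growth, had formed in female 600 at 14 months and in female 976 at 16 months. A fibrosarcoma, a malignant growth of connective tissue, had formed in female 2240 at 18 months and in male 2230 at 30 months. The mouse groups, all male, were control muscle (M1, M2 and M5) and the UIS and IS of mice with fibrosarcoma (animals 1019, 1023 and 512 at 14, 12 and 11 weeks). Sex and time after injection therefore differed between the Spalax groups, and their ages were not compared here. Libraries of tumor-bearing animals were single-indexed and all others dual-indexed. Index type and group therefore cannot be told apart where tumor-bearing animals are compared with control or tolerant muscle.

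The respiratory chain sits in the inner mitochondrial membrane. Complex I takes electrons from NADH and complex II from succinate, complex III passes them from ubiquinol to cytochrome c, and complex IV hands them to oxygen. Complexes I, III and IV pump protons, and complex V, the ATP synthase, uses the returning protons to make ATP. Nearly all subunits are encoded in the nucleus, and working muscle is rich in them. Several subunits of complex IV come in a form made mainly in heart and skeletal muscle and a form made in most tissues, each from a gene of its own.

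The sequences below are shown because the largest decreases of any members in the mouse tumors were those of such muscle forms. They are the coding sequences of the muscle forms Cox7a1 and Cox8b and of their widespread counterparts Cox7a2 and Cox8a, from GENCODE vM21 on GRCm38, printed 5′ to 3′ on the coding strand. Capitals mark the longest run shared within a pair, which was 12 bases for Cox7a and 10 for Cox8.
Cox7a1: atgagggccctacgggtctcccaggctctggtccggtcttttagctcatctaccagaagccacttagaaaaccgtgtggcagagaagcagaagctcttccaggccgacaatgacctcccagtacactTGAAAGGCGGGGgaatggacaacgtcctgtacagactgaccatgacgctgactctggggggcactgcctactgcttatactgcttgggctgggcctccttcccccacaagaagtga
Cox7a2: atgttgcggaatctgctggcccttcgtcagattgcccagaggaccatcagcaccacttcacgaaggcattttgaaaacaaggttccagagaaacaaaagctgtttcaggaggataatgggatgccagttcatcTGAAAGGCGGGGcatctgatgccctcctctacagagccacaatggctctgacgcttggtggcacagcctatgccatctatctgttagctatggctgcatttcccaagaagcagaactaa
Cox8b: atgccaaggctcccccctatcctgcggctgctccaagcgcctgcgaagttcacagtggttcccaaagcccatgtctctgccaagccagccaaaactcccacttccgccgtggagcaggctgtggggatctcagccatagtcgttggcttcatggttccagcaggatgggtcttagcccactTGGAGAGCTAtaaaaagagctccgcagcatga
Cox8a: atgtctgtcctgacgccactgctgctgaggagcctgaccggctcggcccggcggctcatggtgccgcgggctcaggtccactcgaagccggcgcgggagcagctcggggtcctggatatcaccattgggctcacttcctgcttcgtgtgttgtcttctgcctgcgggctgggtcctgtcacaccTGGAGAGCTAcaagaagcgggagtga
Cox7a1 lies on chr7:30184144-30186078 (plus strand) and Cox7a2 on chr9:79755361-79759878 (minus strand). Cox8b lies on chr7:140898945-140900446 and Cox8a on chr19:7215153-7217616, both on the minus strand. Over aligned coding bases the identity was 65.81% between Cox7a1 and Cox7a2 and 58.21% between Cox8b and Cox8a. The forms of the remaining pair, Cox6a2 on chr7:128205435-128206387 and Cox6a1 on chr5:115345642-115348981, shared 66.55%.

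Library totals ran from 17025447 to 23386729 reads in Spalax and from 22143060 to 31179183 in mice, and the values below are reads divided by the size factor of their library. Skeletal muscle markers were detected in all libraries. Their summed level was 43911 to 142097 CPM (a share of the reads of its library) in Spalax muscle but 15.0 to 285 CPM in the 4 Spalax IS libraries. In mice it was 63349 to 149983 CPM in control and UIS tissue and 13.5, 1681 and 5608 CPM in the IS of 1019, 1023 and 512. The muscle label was thus not met by the markers of the IS, and in bulk tissue fewer cells of a type and less RNA per cell cannot be told apart. Some libraries stood apart from their group. Muscle of tolerant animal 2251 carried 17205 CPM of fibroblast markers against 332 to 2363 CPM in all other Spalax muscle, and the UIS of 976 had the lowest muscle markers of the Spalax UIS. The brown fat marker Ucp1 read 45978, 24005 and 42398 in the mouse controls, 13180, 2217 and 0 in the UIS of 1019, 1023 and 512, and 13000 in the UIS of Spalax 2230, with at most 7 in the other Spalax libraries. Some results that rest on these libraries are also given without single ones of them. Leaving out a single control cannot remove Ucp1 from the mouse controls, as each of them carried it.

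Summed over a complex, the members had their highest group mean in untreated muscle and their lowest in tumors, in both species. In Spalax the complex I members summed to 8866 to 12225 CPM in control muscle, 4878 to 9493 in tolerant muscle, 4161 to 6489 in the UIS of granuloma animals and 6645 to 8090 in that of fibrosarcoma animals. They summed to 1797 to 2203 CPM in granuloma and 2000 to 2132 in fibrosarcoma. The tumors lay below every muscle library. Among the muscle groups, the UIS lay below control in CPM, and that of granuloma animals just below that of fibrosarcoma animals. The other muscle groups overlapped. The complex II members ran from 3781 to 4383 CPM in control, from 2249 to 4610 in tolerant and from 2291 to 3444 in UIS muscle, and from 516 to 864 in both tumor types. The highest of these sums belonged to a tolerant animal, 2218. The complex V members ran from 12818 to 16941 CPM in control, from 6808 to 14601 in tolerant and from 5455 to 11149 in UIS muscle, and from 2638 to 3334 in the tumors. For complex IV, Ndufa4 and Ndufa4l2 alone gave 953 to 1757 CPM in control muscle, 208 to 238 in granuloma and 390 to 803 in fibrosarcoma, whose range reached into that of tolerant and UIS muscle. CPM and the size-factor scale differed in size for the tumors. From UIS to granuloma the complex I sum changed by -1.38 in CPM and by -2.13 in size-factor values on the log2 scale, and to Spalax fibrosarcoma by -1.83 and -2.64.

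In mice the order of the group means was the same, with wider spread in the UIS, and the complex I sum changed from UIS to IS by -1.88 in CPM and by -2.95 in size-factor values on the log2 scale. In size-factor values the median UIS sum of complex I lay above that of control (247378 against 207478), as did that of complex V (317538 against 291568). Complex I ran from 7848 to 12450 CPM in control muscle, from 3646 to 10104 in UIS and from 1684 to 2384 in IS. Complex II ran from 3074 to 3813, from 1139 to 2821 and from 476 to 707 CPM. Complex III, the members of which were read in mice alone, ran from 3939 to 5722, from 1499 to 4197 and from 580 to 1015 CPM. The IS stood below the UIS for each of these complexes. Complex IV ran from 5805 to 10314 CPM in control muscle, from 2133 to 7970 in UIS and from 1175 to 1763 in IS. Complex V ran from 11861 to 15903, from 5438 to 12642 and from 2242 to 4569 CPM. The lowest UIS value of every complex belonged to animal 512, in which white fat markers summed to 753 CPM against 4289 and 7096 in the UIS of 1019 and 1023. Markers of slow muscle fibers summed to 145 CPM in the UIS of 512 against 3019 and 2510, and those of fast fibers to 141625 CPM against 87812 and 69543. Their part in the member levels of this library was not tested.

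**Figure D1:**
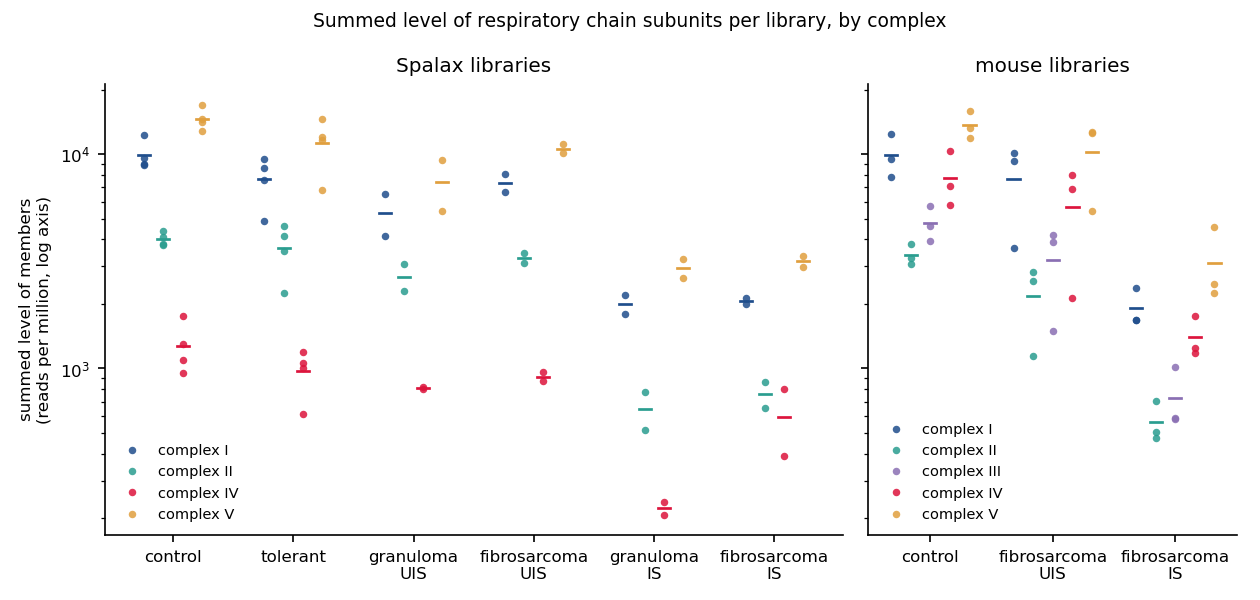
Summed CPM of the members of each complex (log axis) in every Spalax and mouse library by group, with bars at the group means. Complex I runs from 8866 to 12225 CPM in Spalax control muscle and from 1797 to 2203 in granuloma, and no IS library reaches a muscle library for complexes I, II and V.

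The first question was whether uninjected muscle of tumor-bearing Spalax differed from untreated muscle. None of the 58 members passed the test there (limma, Benjamini-Hochberg adjusted p of at most 0.05), and neither did any of the 13909 genes tested (0%). edgeR called no member either, and DESeq2 called 7, beside 516 of the 13909 genes. All 58 members had a lower mean log2 level in UIS than in control, where 52.2% of all genes did, with a median difference of -0.68 (range -1.30 to -0.17) against -0.03 over all genes. At an unadjusted p under 0.05, 29 of 58 members were lower and 0 higher (edgeR 30 in all), beside 8.74% of all genes lower. In 17 of 58 every UIS value lay below every control value, beside 6.20% of all genes. These 17 were 7 of 35 members of complex I, 1 of 4 of complex II, 1 of 2 of complex IV, 7 of 15 of complex V and 1 of the other pair. Median differences were -0.66 for complex I, -0.54 for complex II, -0.85 for complex IV and -0.74 for complex V, within which the 3 c ring genes had -1.05.

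The 3 members with the smallest p were Atp5sl, Ndufa4l2 and Atp5g1. Atp5sl read 2733, 2269, 3567 and 2682 in controls 1042, 1075, 2095 and 6038, and 1301, 1438, 1868 and 1638 in the UIS of 600, 976, 2230 and 2240. Every UIS value lay under every control value, with a log2 difference of -0.84 ± 0.19 (SE; limma adjusted p = 0.16). Ndufa4l2, the low-abundance paralog of Ndufa4 that is known as a hypoxia-induced gene, read 147, 139, 165 and 221 in control and 94.1, 48.3, 78.2 and 77.6 in UIS. Its groups did not overlap either (-1.18 ± 0.29, limma adjusted p = 0.18). Atp5g1, 1 of 3 genes for the c subunit of the ATP synthase ring, read 14955, 11109, 20422 and 14566 in control and 7307, 4082, 9406 and 7098 in UIS. Its highest UIS value stayed below the lowest control value, and its difference was -1.16 ± 0.29. The largest difference of any member was that of Atp5d, the delta subunit of the central stalk of ATP synthase (-1.30 ± 0.41). DESeq2, run on the recovered reads, called Atp5sl (-0.83, adjusted p = 0.00946), Ndufa4l2 (-1.15, adjusted p = 0.00987) and Atp5g1 (-1.11, adjusted p = 0.0143), as well as Atp5g3, Atp5l, Ndufa2 and Ndufs6 (-0.91 to -1.04). Without control 2095, which had the highest member levels of the controls, the median difference was -0.46 with 15 members lower at p under 0.05. Without the UIS of 976 it was -0.50 with 25, and without the UIS of 2230 it was -0.84 with 42.

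Injected muscle of tolerant Spalax was compared with the same controls. Again 0 of 58 members passed (limma; edgeR 0, DESeq2 0), as did 0% of 14020 genes tested. All 58 had a lower mean level in tolerant muscle, beside 53.9% of all genes, with a median difference of -0.52 (range -0.85 to -0.22). At an unadjusted p under 0.05 there were 3 members lower, beside 2.16% of all genes, and 0 of 58 lay wholly below the controls, beside 1.36% of all genes. The 3 were Ndufa4l2 (-0.81 ± 0.31), Atp5sl (-0.78 ± 0.31) and Ndufc2, an accessory subunit of complex I (-0.85 ± 0.35). Ndufa4l2 read 63.5, 90.1, 152 and 89.8 in tolerant animals 2218, 2251, 2261 and 2375, and Atp5sl 2569, 1093, 1095 and 2245, so that each overlapped the controls through a single tolerant animal, 2261 and 2218 respectively. Animal 2251 had the lowest values for most members. Sdha, the flavoprotein of complex II that oxidizes succinate, read 16090 there against 59921, 33600 and 52669 in 2218, 2261 and 2375, and 44932, 35096, 47590 and 41547 in control. Ndufs7, an iron-sulfur subunit close to the ubiquinone site of complex I, read 3095 in 2251 against 10845, 8289 and 7853. Without 2251 the median difference over members was -0.17 with 55 of 58 lower, and without control 2095 it was -0.33. The fibroblast markers of 2251 are given above, and its macrophage markers summed to 916 CPM against 37.4 to 168 in other Spalax muscle. Their part in the lower member levels was not tested.

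Between UIS muscle of tumor-bearing Spalax and tolerant muscle, 0 of 58 members passed (limma), 0 had an unadjusted p under 0.05, and edgeR and DESeq2 called 0. Over all genes limma called 0.00713% of 14029, and 2.09% were lower at an unadjusted p under 0.05. The median difference over members was -0.16 with 47 of 58 lower. The smallest p belonged to Ndufs6, a zinc-binding subunit of complex I (-0.57), Atp5d (-0.78) and Atp5e, the epsilon subunit of the ATP synthase stalk (-0.49). The direction rested on single libraries. Without tolerant 2251, 58 of 58 were lower with a median of -0.50 and 11 at an unadjusted p under 0.05. Without tolerant 2218 only 21 were lower (median 0.07), and without the UIS of 976 there were 25 (median 0.02).

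The mouse counterpart gave a smaller median difference, with single members further from 0. Between UIS and control muscle of mice, 0 of 82 tested members passed (limma; edgeR 0), as did 0% of 14792 genes, and DESeq2 called 1 member, beside 342 genes. In the UIS 72 of 82 had a lower mean, beside 51.7% of all genes, with a median of -0.27. At an unadjusted p under 0.05 there were 4 members lower, beside 7.48% of all genes, and 8 of 82 lay wholly below control, beside 11.7% of all genes. Both shares of members were under those of all genes. The 4 were Atp5j2, the f subunit in the membrane part of ATP synthase, Cox6b2, Ndufa4l2 and Cox8a. Atp5j2 read 9473, 19474 and 7822 in M1, M2 and M5 and 4509, 4752 and 1516 in the UIS of 1019, 1023 and 512, a gap between the groups with a log2 difference of -1.82 ± 0.54. It was also the member DESeq2 called (-1.74, adjusted p = 0.0494). Cox8a read 8573, 7589 and 5778 in control and 2649, 4549 and 487 in UIS (-2.00 ± 0.75). Both groups stood apart for Cox8a as well, with 512 the lowest. Differences were -0.88 ± 0.33 for Ndufa4l2 and -1.78 ± 0.65 for Cox6b2, a form of the cytochrome c facing subunit known from testis. Medians by complex were -0.20, -0.49, -0.38, -0.36 and -0.18 for complexes I to V. Without M2, the control with the highest member levels, 35 of 82 were lower (median 0.07), and without the UIS of 512 only 24 were (median 0.14).

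**Figure D2:**
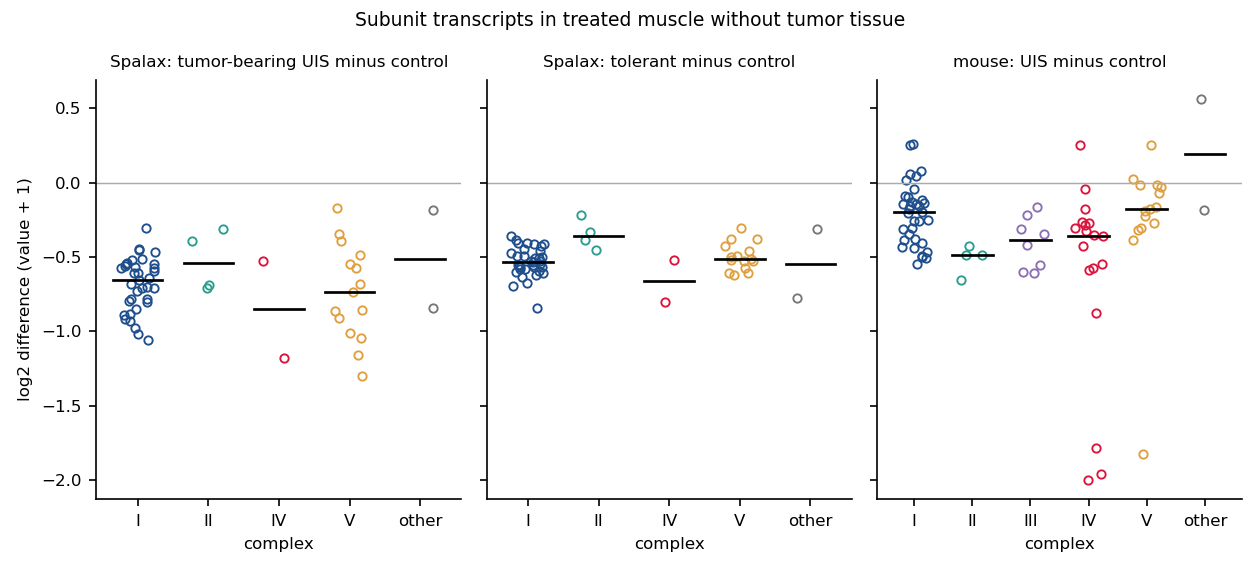
Log2 difference of every tested member by complex for Spalax UIS minus control, Spalax tolerant minus control and mouse UIS minus control, as open points because none passed the test, with bars at the medians. All 58 Spalax members lie below 0 in both Spalax comparisons, with medians of -0.68 and -0.52, and 72 of 82 lie below 0 in mice.

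In the granuloma, the benign growth, 50 of the 58 members fell against the UIS of the same animals and 0 rose (limma), where 12.6% of 14735 genes fell. The median difference was -2.04 against -0.01 over all genes. By complex, 33 of 35 members of complex I fell (median -2.05), 3 of 4 of complex II (-2.55), 1 of 2 of complex IV, 11 of 15 of complex V (-1.94) and both of the other pair. In 57 of 58, all but Ndufa4l2, both IS values lay below both UIS values, as in 5129 of all 14735 genes tested. The 8 that did not pass were Ndufa10 (-2.13), Ndufv3 (-0.62), Sdhd (-2.01), Atp5d (-1.07), Atp5e (-1.22), Atp5g3 (-1.45), Atp5j2 (-1.91) and Ndufa4l2 (2.50). With 2 animals a side the call depended on each library, and with any of the 4 left out no gene passed at all. Members called were 37 by edgeR, 55 by DESeq2 (54 lower), 39 with the animal as a block and 25 with values scaled to total reads. The fibroblast markers summed to 146135 and 77799 CPM in the granulomas, and the muscle gene Ckm read 208 and 9.

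In the Spalax fibrosarcoma, 56 of 58 members fell and 0 rose (limma), where 19.0% of 14696 genes fell, and the median difference was -2.59 against 0.03 over all genes. All 35 members of complex I (median -2.66), all 4 of complex II (-2.50), all 15 of complex V (-2.50) and both of the other pair fell, while neither Ndufa4 nor Ndufa4l2 passed. edgeR called 56, DESeq2 57 (56 lower) and the fit with the animal as a block 55. Leaving out the UIS of 2230 or of 2240 left 0 members called, leaving out the IS of 2230 left 55, and leaving out the IS of 2240 gave 58, of which 57 were lower and Ndufa4l2 higher. Fibroblast markers summed to 36624 and 9713 CPM in the IS of 2230 and 2240, and Ckm read 5 and 6. In animal 2240 the markers Dcn and Lum were lower in IS (3483 and 1302) than in UIS (19046 and 5189). The other listed fibroblast markers were higher in its IS.

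In the mouse fibrosarcoma, 77 of 82 tested members fell and 0 rose (limma), where 22.3% of 15220 genes fell. The median difference was -2.86 against 0.11 over all genes. All members of complex I (35, median -2.90), complex II (4, -2.83), complex III (8, -3.11), complex V (15, -2.80) and of the other pair (-2.26) fell, and 13 of 18 tested members of complex IV did (-2.74). edgeR, DESeq2 and the fit with the animal as a block each called 77. Leaving out a single library gave 74 to 79 calls. Leaving out both libraries of 1023 gave 0, both of 1019 67 and both of 512 79. The other 2 members of complex IV, Cox7b2 and Cox8c, were under the filter. Both are forms known from testis, Cox7b2 at no more than a single read in any library and Cox8c at 0 in all 9.

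**Figure D3:**
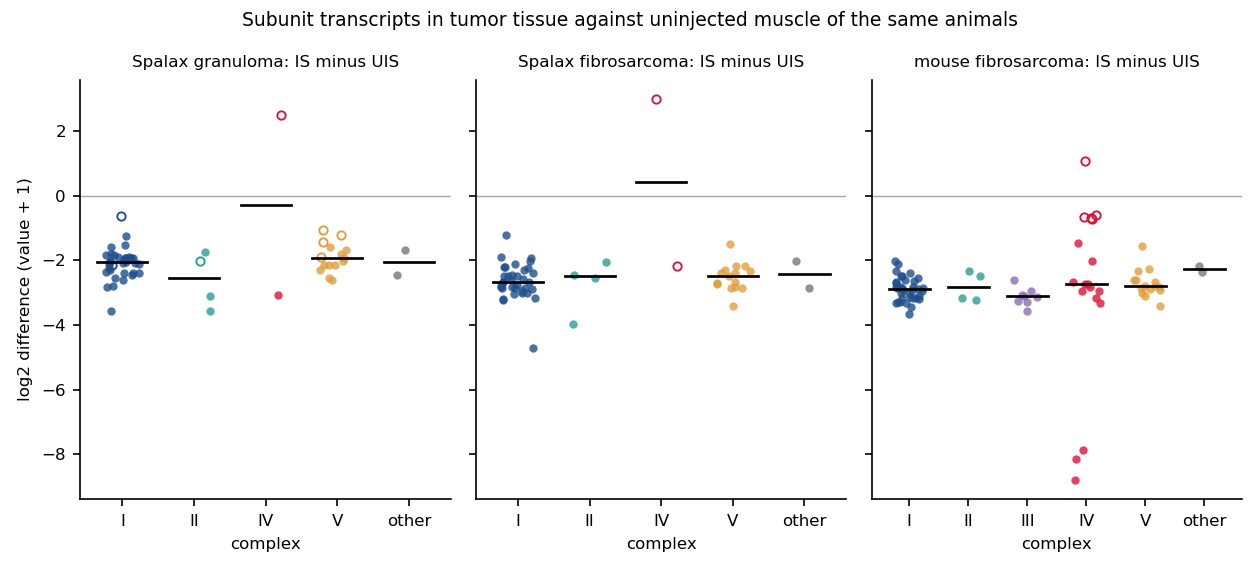
Log2 difference, IS minus UIS, of every tested member by complex in Spalax granuloma, Spalax fibrosarcoma and mouse fibrosarcoma, filled where the member was called and open where not, with bars at the medians of each complex. Of the members tested, 50 of 58, 56 of 58 and 77 of 82 are called lower, Ndufa4l2 lies above 0 in both Spalax tumors, and the muscle forms of complex IV form the lowest points in mice.

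Complex I was led by the same subunit in all 3 tumors. Ndufs7 read 6699 and 3324 in the UIS of 600 and 976 and 397 and 395 in their granulomas. It read 7766 and 6320 in the UIS of 2230 and 2240 and 229 and 304 in their fibrosarcomas. In mice it read 8177, 7625 and 3704 in UIS and 460, 372 and 648 in IS. The IS values lay far below the UIS values in each group and were close to each other. The decrease was 11.9-fold in granuloma (-3.57 ± 0.43, limma adjusted p = 0.0092), 26.4-fold in Spalax fibrosarcoma (-4.72 ± 0.27, limma adjusted p = 0.0019) and 12.7-fold in mouse (-3.67 ± 0.38, limma adjusted p = 0.0018). The other core subunits fell less. Ndufv1, which binds the flavin that accepts electrons from NADH, changed by -2.39, -2.84 and -3.00 in granuloma, Spalax fibrosarcoma and mouse. Ndufs1, the largest iron-sulfur subunit, changed by -2.60, -3.22 and -2.90. Ndufs3 changed by -1.94, -2.95 and -3.29, and the iron-sulfur subunit Ndufs8 by -1.79, -2.29 and -2.39. Ndufv2, read in mice alone, fell by 3.12 on the log2 scale. As a group, core subunits had medians of -2.34, -2.89 and -3.12 and accessory subunits of Spalax -2.05 and -2.66.

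The complex I member that changed least in Spalax was Ndufv3, a small accessory subunit of the NADH-binding arm. It read 2262 and 1538 in the UIS of 600 and 976 and 965 and 1531 in their granulomas, so that animal 976 was nearly level between sides. In the fibrosarcoma animals it read 2697 and 1983 in UIS and 864 and 1128 in IS, with no overlap (-1.23 ± 0.28, limma adjusted p = 0.033). In mice Ndufv3 fell with the rest (-2.48), and the least changed member was the accessory subunit Ndufa7 (-2.03). Ndufb1, found in the Spalax table alone, fell by 2.84 in granuloma and 3.00 in fibrosarcoma on the log2 scale.

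Complex II, which is also an enzyme of the citrate cycle, showed its largest decrease in its catalytic flavoprotein. Sdha read 35902 and 26746 in the UIS of 600 and 976 and 2165 and 3162 in the granulomas. It read 39140 and 34832 in the UIS of 2230 and 2240 and 2309 and 2453 in the fibrosarcomas. In mice it read 27447, 29047 and 23003 in UIS and 2297, 2875 and 3410 in IS. Within each species, every IS value of Sdha lay far below every UIS value. Its levels were not compared between the species, as their reads were aligned to different genomes. The decrease was 11.8-fold (-3.57 ± 0.42), 15.5-fold (-3.95 ± 0.25) and 9.33-fold (-3.22 ± 0.27), with limma adjusted p of 0.0087, 0.0025 and 0.0013. The iron-sulfur subunit Sdhb changed by -3.09 ± 0.36, -2.44 ± 0.37 and -3.17 ± 0.48. The membrane anchors Sdhc (-1.74, -2.06 and -2.49) and Sdhd (-2.01, not called, then -2.55 and -2.32) changed less than Sdha in each.

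Complex III was read in mice alone, and all 8 members fell. Uqcrfs1, the Rieske iron-sulfur protein, read 19014, 17842 and 10665 in the UIS of 1019, 1023 and 512 and 883, 1112 and 2157 in their IS. The highest IS value, that of 512, stayed well below the lowest UIS value, also that of 512, and the decrease was 11.9-fold (-3.58 ± 0.41, limma adjusted p = 0.0022). Uqcrc1 and Uqcrc2, the core proteins, changed by -3.09 and -2.96. Uqcrh, the hinge protein near cytochrome c1, changed least of the complex (-2.61).

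Complex IV held the widest range of any complex in mice. Cox8b, the muscle form of subunit VIII, read 9226, 16923 and 7410 in M1, M2 and M5, and 10134, 13267 and 2740 in the UIS of 1019, 1023 and 512. In the IS of the same mice it read 1.03, 34.4 and 57.4 (-8.80 ± 1.32, limma adjusted p = 0.0041). The 3 tumors were thus far below all 6 muscle libraries, with 1019 down to 2 reads. Cox6a2, the muscle form of subunit VIa, read 20562, 21241 and 10594 in UIS and 7.75, 119 and 199 in IS (-8.13 ± 1.14, limma adjusted p = 0.0034). Cox7a1, the muscle form of subunit VIIa, read 9268, 7541 and 1981 in UIS and 6.20, 32.6 and 44.7 in IS (-7.86 ± 0.87, limma adjusted p = 0.0020). In all 3 genes the tumor of 1019 was lowest and that of 512 highest, which is also the order of the summed muscle markers in these tumors. Brown fat markers summed to 2233 to 6604 CPM in the mouse UIS and to 95.9 to 187 CPM in the IS. Pdk4 held the largest part of each UIS sum, reading 54936, 42654 and 221510 in the UIS of 1019, 1023 and 512. Ucp1 read 13180, 2217 and 0 there, and Cidea 6049, 10275 and 13.0. The highest sum, that of 512, was therefore almost wholly Pdk4. The parts of remaining muscle and of brown fat in the values of the 3 genes were not tested.

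The widespread counterparts changed much less. Cox7a2 read 7333, 7948 and 2391 in UIS and 1087, 1080 and 1775 in IS, and fell by 2.02 on the log2 scale (SE 0.51, limma adjusted p = 0.019). Cox8a read 2649, 4549 and 487 in UIS and 1096, 948 and 1474 in IS, and Cox6a1 read 3289, 5692 and 310 in UIS and 1056, 1024 and 1283 in IS. In both genes the UIS of 512 lay below all tumors, and neither passed (Cox8a -0.65 ± 0.79, Cox6a1 -0.69 ± 1.02). Their sign turned without the UIS of 1023 (0.022 and 0.14) and when values were scaled to total reads (0.42 and 0.38). Without the UIS of 512 both were called lower (-1.59 and -1.95).

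The log2 ratio of muscle to widespread form shows the shift within each library. Cox6a2 over Cox6a1 ran from 0.11 to 2.09 in control, from 1.90 to 5.09 in UIS and from -6.92 to -2.68 in IS. Cox7a1 over Cox7a2 ran from 0.10 to 0.58, from -0.27 to 0.34 and from -7.24 to -5.01. Cox8b over Cox8a ran from 0.11 to 1.16, from 1.54 to 2.49 and from -9.08 to -4.66. No tumor ratio overlapped a muscle ratio for any of the 3 pairs. Per kilobase of exon, the muscle form stood above the widespread form in every control library, at 1.11 to 4.39 times for Cox6a, 1.90 to 2.64 for Cox7a and 1.85 to 3.83 for Cox8. In IS the same ratios per kilobase were 0.00758 to 0.160, 0.0101 to 0.0533 and 0.00162 to 0.0669.

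**Figure D4:**
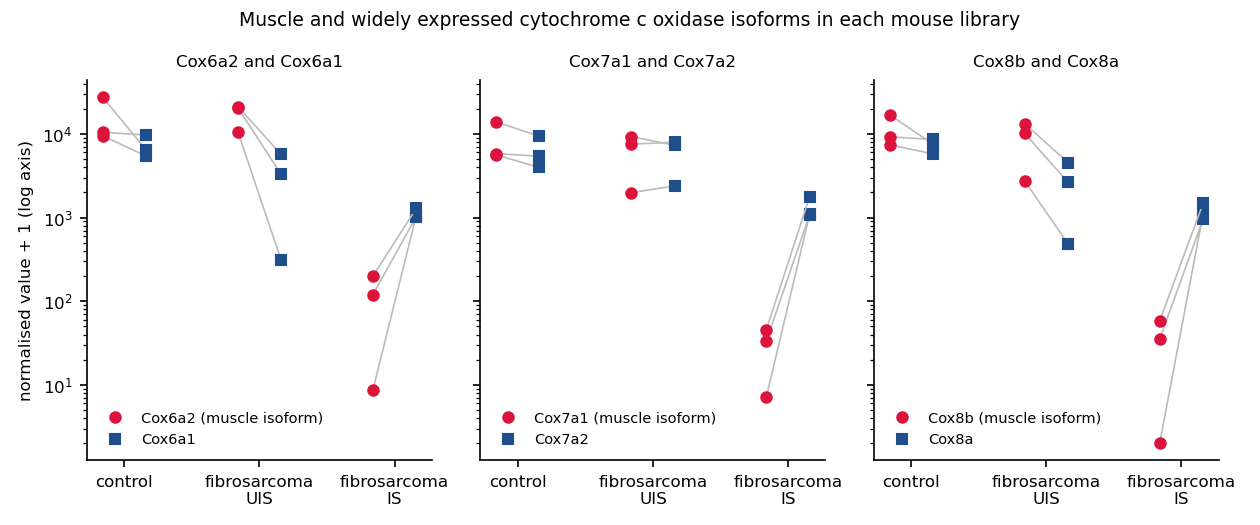
Deposited value plus 1 (log axis) of the muscle and the widespread form of subunits VIa, VIIa and VIII in each mouse library by group, with lines joining both forms of the same library. In control and UIS tissue the muscle form lies near or above the other, and in all 3 IS libraries it lies far below, with log2 ratios between -9.08 and -2.68.

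The remaining members of complex IV fell together in mice. Cox4i1 (-2.67), Cox5a (-3.16), Cox5b (-2.94), Cox6b1 (-2.72) and Cox7b (-2.94) lay close to the median of the complex. Cox7a2l, a relative of Cox7a2 known for joining complexes III and IV, fell by 1.48 on the log2 scale (limma adjusted p = 0.0097), the least of the called members of the complex. The low-abundance forms did not pass. Cox4i2, a form of subunit IV known from lung and hypoxic cells, read 76.2, 77.3 and 43.2 in UIS and 44.5, 36.8 and 45.3 in IS (-0.58). Cox6b2 read 16.9, 36.1 and 5.76 in UIS and 20.2, 48.6 and 40.0 in IS (1.09), and 71.7, 48.2 and 50.4 in control. Both overlapped between sides.

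Ndufa4, once placed in complex I and now known as a subunit of complex IV, differed widely between the fibrosarcomas of Spalax. It read 19184 and 18932 in the UIS of 600 and 976 and 1916 and 2711 in their granulomas, a decrease of 8.36-fold (-3.06 ± 0.37, limma adjusted p = 0.0092). It read 23130 and 19266 in the UIS of 2230 and 2240, but 2053 and 10748 in their fibrosarcomas. The tumor of 2240 thus held far more than the other 3 Spalax tumors, while staying below all UIS values, and the difference did not pass (-2.17 ± 0.84, limma adjusted p = 0.11). In mice it read 17580, 19220 and 7685 in UIS and 1049, 1495 and 1620 in IS, and fell 10.1-fold (-3.33 ± 0.41, limma adjusted p = 0.0025).

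Ndufa4l2 was the only Spalax member whose mean was higher in the tumors than in the UIS. It read 94.1 and 48.3 in the UIS of 600 and 976 and 1652 and 89.4 in their granulomas. It read 78.2 and 77.6 in the UIS of 2230 and 2240 and 2994 and 130 in their fibrosarcomas. A single tumor of each type was therefore high, 600 and 2230, and the other pair stayed below all control values. Neither difference passed (2.50 and 2.99 ± 1.53, limma adjusted p = 0.24 and 0.19). The tumor with high Ndufa4, that of 2240, was not among those with high Ndufa4l2. In mice Ndufa4l2 read 208, 320 and 272 in control, 161, 173 and 104 in UIS and 59.4, 197 and 54.7 in IS, with no call (-0.72).

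**Figure D5:**
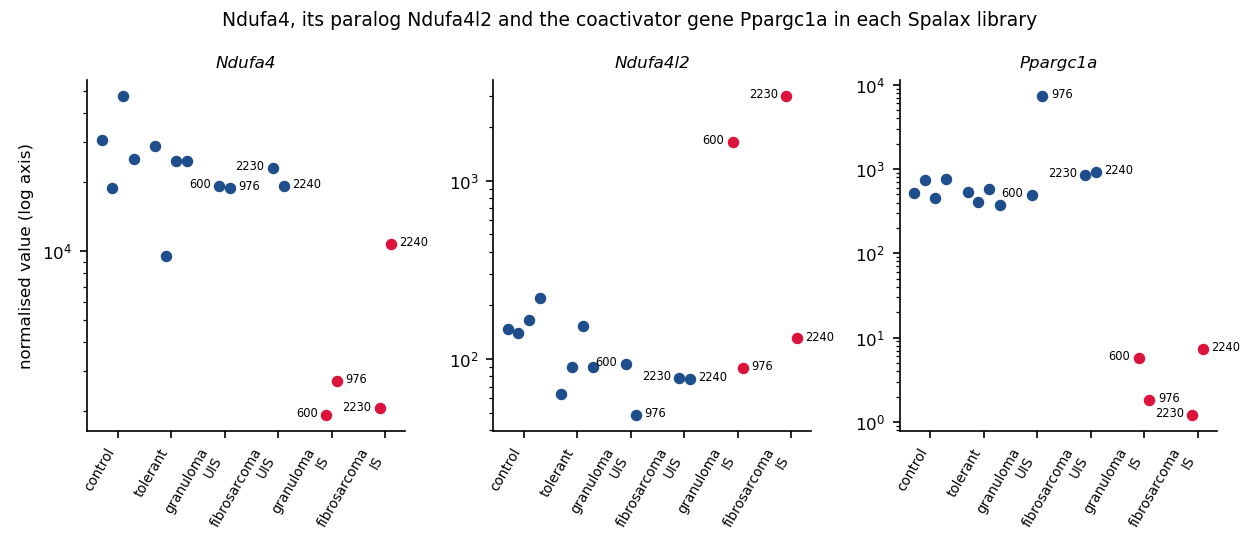
Deposited values (log axis) of Ndufa4, Ndufa4l2 and the coactivator Ppargc1a in each Spalax library by group, IS in red and muscle in blue, with animal numbers for tumor-bearing animals. Ndufa4 stays at 10748 in the tumor of 2240, Ndufa4l2 reaches 1652 and 2994 in those of 600 and 2230, and Ppargc1a is at 7355 in the UIS of 976 and below 10 in all 4 tumors.

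In complex V, the subunits of the catalytic head fell by similar amounts. Atp5a1, which is the alpha subunit, changed by -2.31, -2.86 and -2.79 in granuloma, Spalax fibrosarcoma and mouse, and Atp5b, the catalytic beta subunit, by -2.15, -2.69 and -2.86. The central stalk subunits were Atp5c1 (-2.61, -2.40 and -2.83), Atp5d (-1.07, not called, then -2.31 and -2.67) and Atp5e (-1.22, not called, then -2.38 and -3.40). Atp5e was the most changed member of the complex in mice and among the least changed in granuloma. The e subunit changed by -2.01 and -2.85 in granuloma and Spalax fibrosarcoma under the name Atp5i, and by -2.90 in mice under the name Atp5k.

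The 3 genes for the c subunit, which make the same mature protein behind different import signals, fell unequally. Atp5g1 read 907 and 979 in the granulomas of 600 and 976, 745 and 791 in the fibrosarcomas of 2230 and 2240, and 613, 721 and 1129 in the mouse IS, against 9917, 8047 and 4067 in mouse UIS. It fell 5.79-fold, 10.6-fold and 8.65-fold (-2.53, -3.41 ± 0.25 and -3.11), and no tumor overlapped its UIS. Atp5g2 read 7971 and 9674 in the UIS of granuloma animals and 3087 and 2769 in their IS, and 10436 and 8279 in the UIS of fibrosarcoma animals and 2963 and 3723 in their IS. In mice it read 2999, 2785 and 2213 in UIS and 908, 795 and 980 in IS. The sides again stood apart, but the decreases were 3.00-fold, 2.80-fold and 2.96-fold (-1.59, -1.48 ± 0.27 and -1.57 ± 0.22). Atp5g3 changed by -1.45 (not called), -2.18 and -2.26. The log2 ratio of Atp5g2 to Atp5g3 ran from -0.80 to -0.42 in Spalax control, from 0.27 to 0.52 in granuloma and from 0.52 to 0.84 in fibrosarcoma. In the UIS it was -0.10 in 600, 1.16 in 976, 0.10 in 2230 and -0.13 in 2240, so that it was higher in the tumor of 3 animals and lower in that of 976. In mice it ran from -2.82 to -2.01 in control, from -2.78 to -1.63 in UIS and from -2.37 to -0.98 in IS, with overlap between all groups. That of Atp5g1 to Atp5g3 ran from -0.19 to 0.04 in control, from -0.35 to -0.05 in UIS, from -1.25 to -1.23 in granuloma and from -1.71 to -1.15 in fibrosarcoma. In mice it ran from -1.25 to -0.88 in control, from -1.05 to -0.75 in UIS and from -2.17 to -1.41 in IS, and the tumors stood below all muscle libraries in both species. Of the other pair, Atp5s changed by -2.45, -2.84 and -2.35 and Atp5sl by -1.66, -2.02 and -2.17.

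Between the tumor types of Spalax, the levels themselves were compared next. In fibrosarcoma IS against granuloma IS, 0 of 58 members passed (limma, edgeR and DESeq2) and 0 had an unadjusted p under 0.05, as 0% of 14562 genes passed and 2.38% were lower at an unadjusted p under 0.05. The median was -0.08 with 33 of 58 lower (range -0.61 to 1.04). The smallest p belonged to Ndufb10 (0.72), an accessory subunit of the membrane arm of complex I, Atp5e (-0.49) and Sdhb (0.63). The difference between IS and UIS was then tested for a difference between tumor types. Here too 0 of 58 passed (limma, edgeR and DESeq2) and 0 had an unadjusted p under 0.05, where 0% of all genes passed and 3.16% were lower at an unadjusted p under 0.05. The decrease was larger in fibrosarcoma for 52 of 58, with a median of -0.50, led by Atp5e (-1.16 ± 0.50), Ndufs7 (-1.15 ± 0.54) and Ndufa2 (-0.83 ± 0.40). The UIS of 976, already low in most members, entered the granuloma side of this difference.

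Between the species, 0 of the 56 shared members differed in their IS against UIS change between Spalax and mouse fibrosarcoma (limma and edgeR), where 3.95% of 11085 shared genes did. At an unadjusted p under 0.05, 0 members had a lower and 2 a higher change in Spalax. Of all 11085 genes, 1220 (11.0%) were lower and 1170 higher there, so both member counts lay under the shares of all genes. The median was 0.16 with 17 of 56 lower. The smallest p belonged to Ndufa4l2 (3.71 ± 1.59) and to Ndufb4 (1.25) and Ndufb11 (1.11), accessory subunits of the membrane arm of complex I. DESeq2 called 1, Ndufa4l2 (4.89, adjusted p = 0.00774). Without the IS of 2240 limma called Ndufa4l2 too (5.96), and without the mouse UIS of 512 it called Atp5e (1.51), Ndufb4 (1.62) and Ndufv3 (1.72).

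Other genes tied to the chain were counted from lists. The mitochondrial genome encodes the remaining core subunits, and in mice, where 12 of them were tested, all 12 fell in the tumors (limma), with a median of -4.07, from mt-Nd3 (-4.63) to mt-Atp8 (-3.23). They took 11.3, 14.0 and 13.9% of reads in M1, M2 and M5 and 12.6, 14.9 and 5.90% in the UIS of 1019, 1023 and 512. In the IS they took 1.10, 1.11 and 1.88%, below all muscle libraries. The values of these genes were uneven. In muscle mt-Nd3 read 84.4 to 653, and mt-Co2, mt-Co3 and mt-Atp6 read 25.9 to 335, while mt-Co1 read at least 560734. The cause was not tested. Of subunits and partners named otherwise, Nnt, a proton-driven transhydrogenase, fell in all 3 tumors (-4.06, -4.26 and -2.51), as did Ndufab1, the acyl carrier of complex I (-2.28, -2.47 and -2.26), and Usmg5, a small subunit of ATP synthase (-1.50, -2.08 and -2.35). In mice the electron carriers Cyc1 (-2.70) and Cycs (-2.54) and the ATP synthase subunit 2010107E04Rik (-2.44) fell. Atpif1, the inhibitor of ATP synthase, had values of 0.15, 0.87 and 1.46 and did not pass in any. Assembly factors fell in 3 of 24, 17 of 24 and 36 of 45 (medians -1.11, -1.51 and -1.55), beside 12.6%, 19.0% and 22.3% of all genes, so that the granuloma count lay at the share of all genes. They had extremes of Atpaf1 (-2.41), Ndufaf5 (-2.32) and Ecsit (-3.49) at the lower end and Foxred1 (0.09 and -0.20) and Sco1 (0.41) at the upper.

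Among 20 regulators of these genes, 8 fell and 1 rose in granuloma, 4 fell and 2 rose in Spalax fibrosarcoma and 8 fell and 3 rose in mice (limma). Beside these stand the 12.6%, 19.0% and 22.3% of all genes that fell, and the 4 that fell in Spalax fibrosarcoma lie near that share. Of all genes tested, 1718 of 14735, 2550 of 14696 and 3469 of 15220 rose, larger shares than among the regulators. Ppargc1a, the coactivator that drives mitochondrial biogenesis in muscle, read 7355 in the UIS of 976 against 373 to 933 in all other Spalax muscle, and 5.81, 1.81, 1.20 and 7.38 in the IS of 600, 976, 2230 and 2240. In mice it read 1498, 863 and 907 in UIS and 5.17, 5.93 and 145 in IS. The tumors were below all muscle libraries (-8.76, -7.70 and -5.84, all called), while the UIS of 976, with the highest Ppargc1a, was among the lowest in member levels. The orphan receptors that work with it also fell in all 3 tumors, Esrra (-2.09, -2.83 and -2.42), Esrrb (-7.05, -6.89 and -5.33) and Esrrg (-6.08, -4.99 and -4.88). The related coactivator Pprc1 rose in all 3 (1.83, 1.73 and 1.49), from 323 to 687 in Spalax muscle to 1090 to 1969 in IS. Myc, a growth regulator, rose in both fibrosarcomas (2.60 and 2.47) and had 1.31 in granuloma without a call. Tfam, which packages and transcribes mitochondrial DNA, changed by -1.82, -0.66 (not called) and -1.13. Nrf1 (-0.39, 0.35 and 0.29) and Gabpa (0.21, 0.62 and -0.06), factors known to bind many subunit promoters, did not pass in any tumor. Of the other called regulators, the lipid sensor Ppara changed by -7.69, -6.06 (not called) and -4.63, the mitochondrial transcription factor Tfb2m by -1.55, -1.36 (not called) and -2.37, and the corepressor Nrip1 by -2.05 in granuloma alone. In mice the mitochondrial RNA polymerase Polrmt fell (-1.20) and Gabpb1, the partner of Gabpa, rose (0.89).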

How the data were processed

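RNA had been sequenced as stranded, 101-cycle reads. Per the study's methods and the submitters' processing notes, reads were trimmed with Trimmomatic, aligned with TopHat to a Spalax or mouse (GRCm38) genome and counted with HTSeq. The deposited values are a signal: counts of reads per gene that had been scaled in each library by a size factor of its own, since every value was a whole multiple of a library-specific step within 0.001 reads. Spalax gene names, in which commas stood for a lower-case t, were restored, and the 16 values were read from the line end. In mice, Ndufb6 (39%) and Ndufa13 (29.98%) had the largest shares of exon bases under a gene on the opposite strand. Other members had smaller overlaps of this kind, among them Cox6a2 (10.29%).

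Here, log2(value + 1) was fitted with limma 3.58.1 (lmFit, eBayes with trend, R 4.3.3), in the groups compared only, over genes that reached a value of 10 in at least n libraries, n being the size of the smaller group. Fold changes on this scale understate low genes. A gene was called at an adjusted p (Benjamini-Hochberg, over all genes tested) of 0.05 or less. edgeR 4.0.16 (quasi-likelihood) and DESeq2 1.42.0 on the recovered reads, a pseudocount of 0.1, no filter, scaling by total reads, 1 model over all groups, the animal as a block and leaving out libraries were alternatives. A value of 10 corresponds to 6.95 to 19.3 reads. Exon lengths and sequences came from GENCODE vM21, in which 82 of 84 mouse members were found by symbol. Figures and summaries used numpy 2.4.6, pandas 2.3.3, matplotlib 3.10.9 and biopython 1.88, and the scripts were tested on simulated data.

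Samples were grouped by the labels. IS and UIS came from the same animals, so their numbers pair them, although deviations from the group means hardly correlated between sides (0.009 in granuloma, -0.002 in Spalax fibrosarcoma and 0.117 in mice). Members and gene lists were chosen with earlier results of these data known. Named were the paired forms and core subunits, in each tumor the most and least changed member of each complex, elsewhere the members called or the 3 with the smallest p, and members in 1 table or under the filter. Some values of this rule are not reported here. P-values measure the spread between animals.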

Additional observations from a re-analysis of the deposited data

Results flagged for a closer look

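Of 46 sets of 4 animals examined for a value far from the rest, 1 stood out. Ndufs8, an iron-sulfur subunit of complex I, had a value of 7964 in control 2095 against 4699, 4075 and 4065 in controls 1042, 1075 and 6038, a gap of 0.837 of the range, above the critical value of Dixon's test. About 1 in 20 such sets is expected to exceed it by chance.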

How the results depend on the processing

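Counts of called members moved by over 1.5 times, or passed from 0, in these cases. DESeq2 called 7 in Spalax UIS against control, 1 in mouse UIS against control and 1 in the species difference. Scaling by total reads moved the median of all genes to 0.73, 0.86 and 1.20 in the 3 tumor comparisons and left 25 in granuloma. The member medians lay at -2.04, -2.64 and -2.99 from it. Such scaling shifts all genes of a library alike, so this distance could hardly change and tests nothing. Leaving out single libraries gave 0 to 0 in granuloma, 0 to 58 in Spalax fibrosarcoma and 0 to 3 in the species difference, and leaving out libraries or whole mice, the latter chosen after seeing the data, 0 to 79 in mouse IS against UIS. Fewer samples were fitted there, and the cause was otherwise not tested. In mouse IS against UIS, scaling by total reads turned Cox4i2 (0.46), Cox6a1 (0.38), Cox8a (0.42) and Ndufa4l2 (0.34). Cox6a1 and Cox8a also turned without the UIS of 1023 (0.14 and 0.022) and without both its libraries (0.20 and 0.16), and without the UIS of 512 both passed (-1.95 and -1.59). With the replicate block for the animal, 39, 55 and 77 members were called in the tumors and 0 in either difference between tumors. No other named member turned sign in the alternatives run, while the medians over members in Spalax UIS against tolerant and in mouse UIS against control did without single libraries, as given above. Summing size-factor values in place of CPM moved 13 summed levels, all in IS against UIS and all further from 0. Depth limits the lowest values. Besides Cox7b2 and Cox8c, Cox8b had 2 reads, Cox7a1 12 and Cox6a2 15 in the IS of 1019, and Cox6b2 had 4 in the UIS of 512.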

Other observations

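Mitochondrial genes outside the chain also fell in the tumors, in lists chosen with earlier results known. Citrate cycle genes fell in 17 of 18, 18 of 18 and 17 of 18 in granuloma, Spalax fibrosarcoma and mouse fibrosarcoma (limma; medians -2.31, -2.44 and -2.92), beside 12.6%, 19.0% and 22.3% of all genes. Idh2, the mitochondrial isocitrate dehydrogenase that uses NADP, was lowest in both Spalax tumors (-4.33 and -4.48), and Sucla2, a subunit of succinyl-CoA ligase, in mice (-3.97). At the upper end were Idh3b (-1.84), Ogdh (-1.74) and, in mice, Suclg2 (-0.68, not called). Mitochondrial ribosomal proteins fell in 29 of 76, 37 of 76 and 56 of 76, with smaller medians of -1.23, -1.27 and -1.39 and Mrps18b (-2.96), Mrpl34 (-3.05) and Mrpl42 (-3.06) lowest.

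Of the genes for mitochondrial carriers, pores and dynamics, 8 of 22 fell in granuloma, 13 of 22 in Spalax fibrosarcoma and 16 of 24 in mice, beside the same shares of all genes. The ATP/ADP carriers of muscle and of other tissues parted ways in granuloma, where Slc25a4, the form of heart and muscle, fell (-6.72) and Slc25a5, the widespread form, rose (2.42). In the fibrosarcomas Slc25a4 fell too (-7.18 and -4.24), and Slc25a5 had values of 1.79 and 1.12 without a call. In Spalax UIS against control, where limma called none, mitochondrial ribosomal proteins had a median of -0.42 with 28 of 76 lower at an unadjusted p under 0.05, citrate cycle genes -0.32 with 1 of 18 and assembly factors -0.35 with 5 of 24, where 8.74% of all genes were lower. The citrate cycle count lay under that share.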
